A study of Sus scrofa with 23 samples.

Results

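The genes described here are 5 chemokines that attract lymphocytes, CXCL9, CXCL13, CXCL16, CCL5 and CCL19, in pig macrophages given bacterial lipopolysaccharide (LPS). They were chosen by their gene symbols, with earlier results of these data known. Of the 23999 probe sets tested, 6 were annotated to them alone: 2 to CXCL13 and 1 to each of the others. These are 5 of the 6765 genes that a probe set named. All cells were bone marrow-derived macrophages of Large White x Landrace F1 pigs, grown from bone marrow with recombinant human CSF1, the macrophage growth factor. Cells at 0 h were unstimulated, and cells at 2, 7 and 24 h had received 100 ng/ml LPS of Salmonella enterica serotype minnesota. The labels give 3 pigs, 1 and 3 male and 2 female, with a culture and its duplicate at each time, except that pig 3 has 1 culture at 24 h. The labelled 0, 2 and 7 h hold 6 arrays each, and the labelled 24 h holds 5. The age of the animals was not given in the sources used here, and duplicate cultures share their animal.

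Chemokines are small secreted proteins that bind receptors on white blood cells and draw them along a gradient. CXCL9 is induced by interferons and acts on CXCR3 of activated T and NK cells, and CCL5 draws T cells and monocytes, with CCR1 and CCR3 among its receptors. CXCL13 draws B cells through CXCR5, and CCL19 draws naive T cells and dendritic cells to lymph nodes through CCR7. CXCL16 is made as a membrane protein, is cut free by the proteases ADAM10 and ADAM17, and binds CXCR6.

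The labels did not pass their check, and every comparison of times or pigs below holds for arrays as labelled only. Levels here are log2 intensities. The Y-linked gene EIF1AY was bright on 15 arrays (8.16 to 9.45) and dim on 8 (3.60 to 4.08), a split that contradicted the sex in the labels for 8 of the 23. Of the 22 arrays with a labelled duplicate culture, 0 had that duplicate as their most similar array. In 11 pairs each array was the closest to its partner over probe sets of other genes. These most similar pairs shared a labelled pig in 11 cases, a labelled time in 0 and the EIF1AY level in 11, and all 11 were neighbouring columns of the deposited table. Each pair joined the labels 0 h and 2 h, or 7 h and 24 h, of the same labelled culture. The comparison of 2 h with 0 h is thus made within such pairs. Small differences there cannot be read as a lack of change with time. Array medians lay between 6.11 and 6.20.

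None of the 5 chemokines passed the test between labelled times, and 4 of them ranged from low to high among arrays of a single labelled time. CXCL9 lay between 4.18 and 13.93 on the 6 arrays labelled 0 h, between 4.36 and 13.84 at 2 h, between 4.93 and 13.55 at 7 h and between 4.83 and 12.77 on the 5 arrays labelled 24 h. All 4 groups overlapped. Averaged within pigs, CXCL9 stood at 9.53 ± 4.72 at the labelled 0 h, 9.58 ± 4.57 at 2 h, 10.26 ± 4.08 at 7 h and 9.81 ± 3.87 at 24 h (SD, n = 3 pigs). Neighbouring means in the order of level, 0 h, 2 h, 24 h and 7 h, differed by far less than 1 SD.

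The other members showed the same overlap. CXCL13 (its brighter probe set) stood at 8.75 ± 3.86, 8.74 ± 3.56, 9.08 ± 3.33 and 8.64 ± 2.77 at the labelled 0, 2, 7 and 24 h (SD, n = 3 pigs). CXCL16 stood at 11.27 ± 1.90, 11.29 ± 1.83, 11.65 ± 1.72 and 11.52 ± 1.71 in the same order. CCL5 stood at 11.62 ± 3.11, 11.65 ± 3.01, 12.17 ± 1.68 and 12.14 ± 1.67. For these 3 genes, as for CXCL9, the SD between labelled pigs was larger than any difference between labelled times. That SD is not the error of the test below, which compares times within labelled pigs. CCL19 stood at 5.47 ± 0.14, 5.31 ± 0.13, 5.33 ± 0.19 and 5.46 ± 0.21, a narrow range in which the groups also overlapped.

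**Figure D1:**
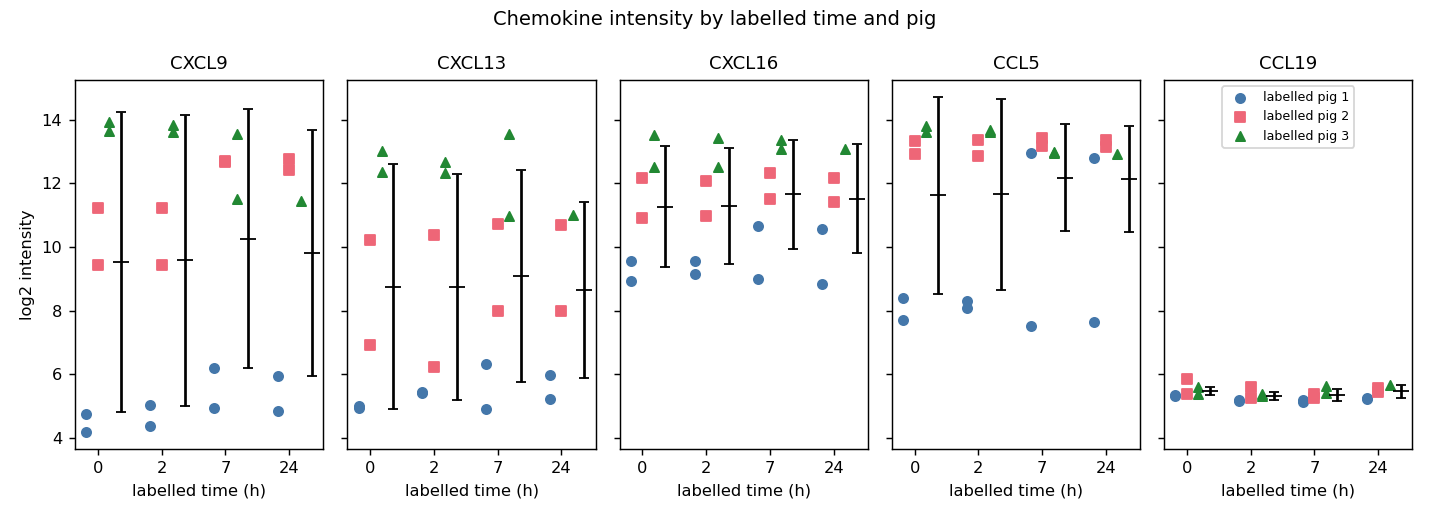
Log2 intensity of the 5 chemokines (y axis) against labelled time in hours (x axis). Each point is 1 array, its shape and colour the labelled pig, and the black bar is the mean ± SD of the 3 pig means. For CXCL9, CXCL13, CXCL16 and CCL5 the points of each labelled time spread over much of the y axis, as from 4.18 to 13.93 for CXCL9 at 0 h, and CCL19 stays between 5.11 and 5.85.

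In the limma test with pig as a term, 0 of 5 members passed in any comparison. The comparisons of 2, 7 and 24 h share the arrays labelled 0 h. Over all probe sets, 3 of 23999 (0.0125%) passed for 2 h against 0 h, 0 (0%) for 7 h, 1 (0.00417%) for 24 h and 2 (0.00833%) for any difference among the labelled times. An unadjusted p under 0.05 was reached in these comparisons by 521, 754, 986 and 694 probe sets. Among the members it was reached by 0 of 5 at 2 h and by 1 of 5, CXCL16, at 7 h, at 24 h and over all times. With cultures averaged, CXCL16 was higher at the labelled 7 h than at 0 h by 0.37 ± 0.08 (SE) in 3 of 3 pigs, with an adjusted p of 0.993 in the limma test. The cultures of a pig were not alike. In pig 1, culture 1 read 8.94 at 0 h and 8.98 at 7 h, and culture 2 read 9.57 and 10.65. In pig 2 the readings were 10.92 and 11.51, and 12.18 and 12.31. In pig 3 culture 1 rose from 12.52 to 13.08 and culture 2 fell from 13.51 to 13.36. At 24 h CXCL16 was higher by 0.25 ± 0.08 in 3 of 3 pigs, also with cultures averaged, with an adjusted p of 0.914. Without the 8 arrays that contradict their labelled sex, an alternative added after seeing the data, these differences were 1.16 and 1.04 (adjusted p = 0.298 and 0.419 in limma). The 0 h label then held columns 1, 5, 9 and 17 of the deposited table, and the 7 h label columns 7, 15, 19 and 23. The 24 h label held columns 8, 16 and 20. In each labelled pig these later times stood further along the table than 0 h. Labelled time and position cannot be told apart in that alternative. In the full set, too, every labelled culture ran from 0 h to its later labels along neighbouring columns. Labelled time and position within a culture therefore cannot be told apart in the main test either.

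Most of the remaining differences had errors close to or above their size. At 7 h against 0 h, CXCL9 differed by 0.73 ± 0.84 (SE), higher in 2 of 3 pigs, CCL5 by 0.55 ± 0.58, higher in 2 of 3, and CXCL13 by 0.34 ± 0.45, higher in 2 of 3. The second CXCL13 probe set differed by 0.42 ± 0.40, higher in 3 of 3. CCL19 differed by -0.14 ± 0.08, higher in 1 of 3. All had an adjusted p of 0.993 in the limma test. Single labelled pigs moved in opposite directions: CCL5 differed by 2.20 in labelled pig 1, by 0.18 in pig 2 and by -0.73 in pig 3. For the wide-ranging members these intervals are too broad to show that levels were alike.

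The position of an array in the deposited table, which is not a label, separated the levels where the labelled times did not. The table was read in 4 runs, columns 1 to 6, 7 to 12, 13 to 18 and 19 to 23. These runs belong to a column order that was inferred earlier from the similarity of these arrays, so they are not independent of the values. No time or animal is therefore given to a run, and no mean, fold change or test is made between runs. Each labelled time has at least 1 array in every run: the 0 h label, for example, stands on columns 1, 5, 9, 13, 17 and 21. The labelled pigs are stretches of the same table, columns 1 to 8, 9 to 16 and 17 to 23, and CXCL16 was at 8.85 to 10.65, 10.92 to 12.31 and 12.52 to 13.51 in them, with no overlap. CCL19 was at 5.11 to 5.33, 5.25 to 5.85 and 5.32 to 5.65, with overlap.

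CCL5 had 2 separate levels and nothing between them. On columns 1 to 6 it read 7.69, 8.09, 7.52, 7.64, 8.38 and 8.30. Columns 7 to 12 read 12.96, 12.81, 12.91, 12.85, 13.43 and 13.37. The lowest of the second run lay 4.43 above the highest of the first, so these runs did not overlap. Columns 13 to 18 lay between 13.14 and 13.62, and columns 19 to 23 between 12.93 and 13.79. From column 7 on, the runs overlapped and CCL5 stayed within 12.81 to 13.79.

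CXCL9 was low on columns 1 to 6 as well, but its second run was split into 3 levels. On columns 1 to 6 it read 4.18, 4.36, 4.93, 4.83, 4.74 and 5.02. Columns 7 and 8 read 6.18 and 5.95, columns 9 and 10 read 9.43 and 9.44, and columns 11 and 12 read 12.71 and 12.43. The neighbouring arrays thus differed by 0.28 or less while the run as a whole covered 6.76, against 0.62 for CCL5 on the same 6 arrays. Columns 13 to 18 read 11.22, 11.22, 12.67, 12.77, 13.93 and 13.84. Columns 19 to 23 read 11.51, 11.44, 13.65, 13.61 and 13.55. These last runs overlapped each other and the top of the second run, and lay at least 6.20 above the first.

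CXCL13 stayed low for longer along the table. It read 5.01, 5.40, 4.90, 5.23, 4.95 and 5.44 on columns 1 to 6, and 6.33, 5.96, 6.92, 6.22, 8.0 and 7.97 on columns 7 to 12. Columns 13 to 18 read 10.23, 10.38, 10.73, 10.70, 12.37 and 12.33, all at least 2.23 above the second run. Columns 19 to 23 read 10.97, 11, 13.01, 12.67 and 13.54, and overlapped columns 13 to 18. The second CXCL13 probe set had the same form, with 3.16 to 3.45, 3.89 to 5.17, 9.36 to 11.08 and 9.70 to 12 in the 4 runs. Pearson's r between the probe sets was 0.99 over the 23 arrays.

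CXCL16 was the member whose 4 runs were all apart. It read 8.94, 9.15, 8.98, 8.85, 9.57 and 9.55 on columns 1 to 6. It read 10.65, 10.55, 10.92, 10.98, 11.51 and 11.41 on columns 7 to 12. Columns 13 to 18 lay between 12.08 and 12.52, and columns 19 to 23 between 13.08 and 13.51. Each run lay wholly above the one before, by 0.98, 0.58 and 0.56 between the nearest arrays, where the largest difference within a most similar pair was 0.21.

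CCL19 was dim on every array. Its levels ran from 5.11 to 5.85, below the array's own median on 23 of 23 arrays, between percentiles 36.4 and 46.2 of the probe sets. The runs lay at 5.11 to 5.33, 5.18 to 5.43, 5.36 to 5.85 and 5.32 to 5.65. Columns 13 to 18 lay above columns 1 to 6 by 0.03 between the nearest arrays, less than the median difference of CCL19 within most similar pairs, 0.17. That gap is between extremes: the medians were 5.22 on columns 1 to 6 and 5.58 on columns 13 to 18. Whether CCL19 differed between these runs was not tested.

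Every array of columns 7 to 12 lay above every array of columns 1 to 6 for 4 of 5 members, CCL19 being the exception, and for 4.55% of all probe sets. The counts against columns 1 to 6 were 5 of 5 members beside 11.2% of probe sets for columns 13 to 18, and 4 of 5 beside 9.68% for columns 19 to 23. Columns 13 to 18 lay above columns 7 to 12 for 2 of 5, CXCL13 and CXCL16, beside 9% of probe sets. Columns 19 to 23 lay above columns 13 to 18 for 1 of 5, CXCL16, beside 8.97%. The later run lay wholly below the earlier for 0 of 5 members in each of these 5 comparisons, beside 8.05%, 18.5%, 15.3%, 12.2% and 8.11% of probe sets in the same order. The genes were picked with earlier results of these data known, so these counts describe the members and are no test. In cultures measured in bulk, more cells that make a transcript and more transcript per cell cannot be told apart.

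**Figure D2:**
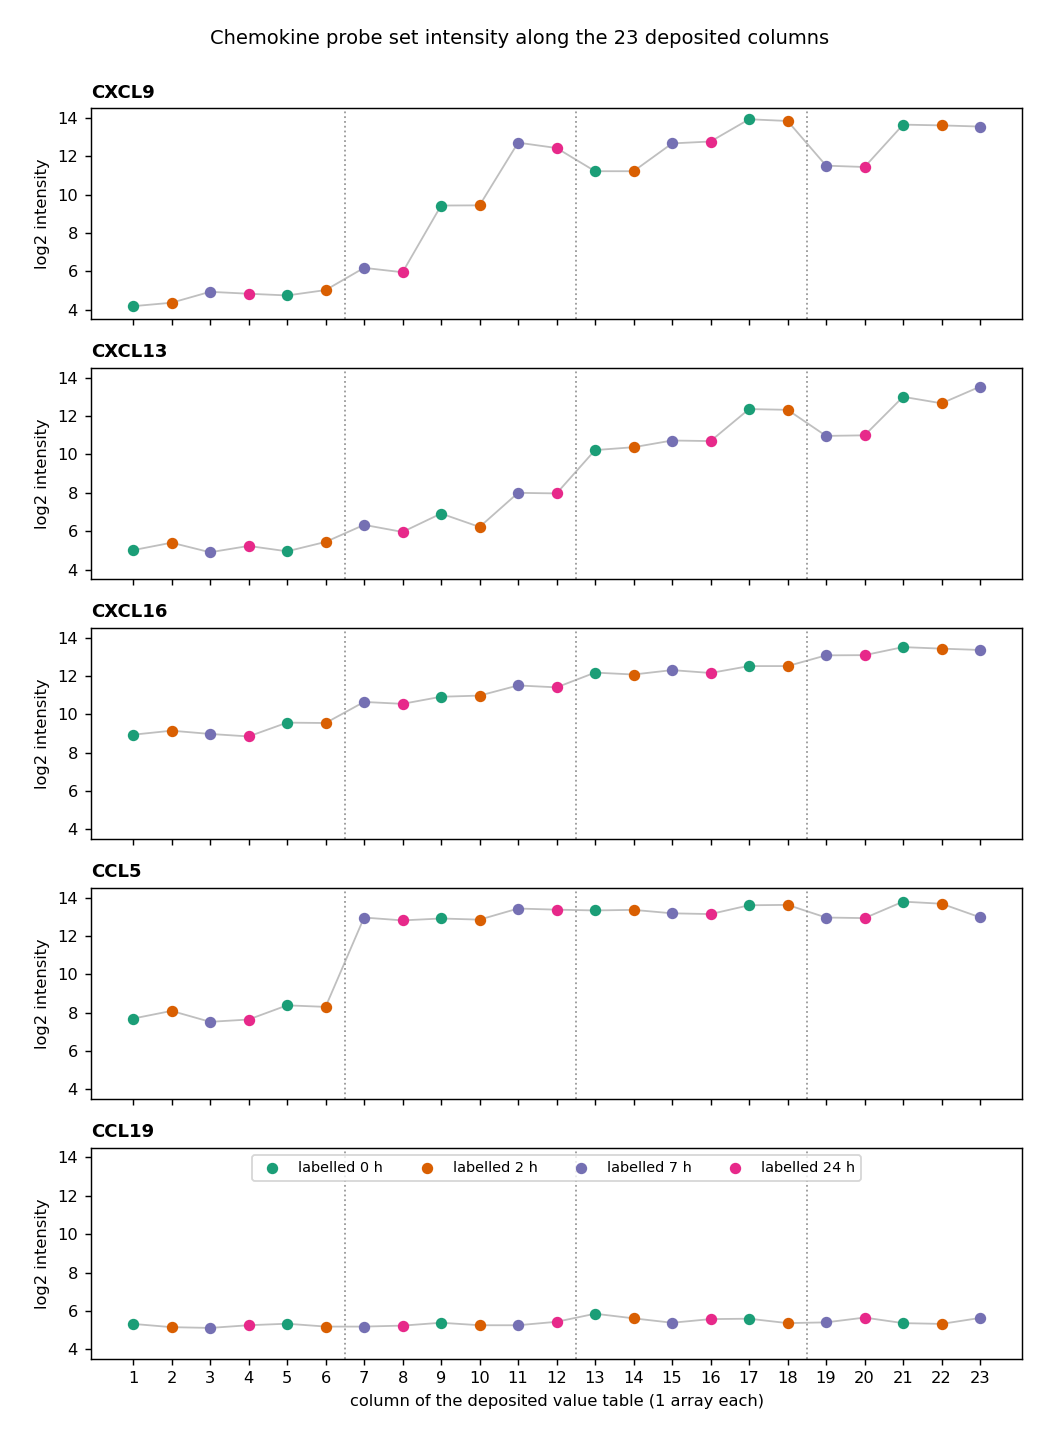
Log2 intensity of each chemokine (y axis, the same in all 5 panels) on each array, in the order of the columns of the deposited table (x axis). Points are arrays coloured by labelled time, and dotted lines mark the ends of the 4 runs of columns. CCL5 runs from 7.52 to 8.38 up to column 6 and from 12.81 to 13.79 after it, CXCL13 passes 10 from column 13 on, and CXCL16 is apart in all 4 runs. The colours mix within each run.

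Within the later runs, neighbouring pairs of arrays stood at different levels for some members. Columns 13 and 14 were the lowest of their run for CXCL9 and CXCL13, and columns 17 and 18 the highest for CXCL9, CXCL13, CXCL16 and CCL5. For CXCL16, columns 13 and 14 overlapped columns 15 and 16. Columns 19 and 20 were the lowest of the last run for CXCL9, CXCL13 and CXCL16. Column 23 was the highest for CXCL13 and below columns 21 and 22 for CXCL9 and CXCL16. CCL5 read 12.96 and 12.93 on columns 19 and 20, 13.79 and 13.68 on columns 21 and 22, and 12.97 on column 23. In the second run, columns 11 and 12 were the highest for CXCL9, CXCL13, CXCL16 and CCL5. EIF1AY was low on columns 3, 4, 9, 10, 15, 16, 21 and 22, 1 neighbouring pair in each run. In the second run the pairs with high EIF1AY, columns 7 and 8 and columns 11 and 12, stood furthest apart in CXCL9.

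By span, the difference between the highest and lowest array, CXCL9 and CXCL13 were near the top of the genes measured. CXCL9 spanned 9.75 on the deposited values, with 0 of 6765 genes wider, and 8.84 after a pseudocount of 16. CXCL13 spanned 8.64, with 2 genes wider, and 8.02 after the pseudocount. Their lowest levels stood at percentiles 20.4 and 33.2 of the array and were not shown to lie above background, so no ratio is given. CCL5 spanned 6.26 (intensity ratio 76.9) with 25 genes wider, and CXCL16 4.66 (ratio 25.4) with 96 wider. CCL19 spanned 0.74 and 4580 genes were wider, where the median gene spanned 0.96. A span of at least 2 was found in 4 of 5 members and in 13.3% of all genes. These spans use no label.

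Differences within pairs of arrays were far below the span for every member but CCL19. A span covers 23 arrays and a pair 2, so the values are set side by side with no test. Within the 11 most similar pairs, found on probe sets of other genes, CXCL9 differed by a median of 0.09 and at most 0.28, CCL5 by 0.06 and at most 0.40, and CXCL16 by 0.10 and at most 0.21. CXCL13 differed by 0.32 and at most 0.70, and CCL19 by 0.17 and at most 0.25. Pairs picked for their similarity give a low estimate of the error. Labelled duplicate cultures were further apart in 4 of the members: their median difference was 0.66 for CXCL9, 1.43 for CXCL13, 0.90 for CXCL16 and 0.25 for CCL5, with a largest difference of 5.44 for CCL5. For CCL19 it was 0.13, and at most 0.47, beside its span of 0.74.

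**Figure D3:**
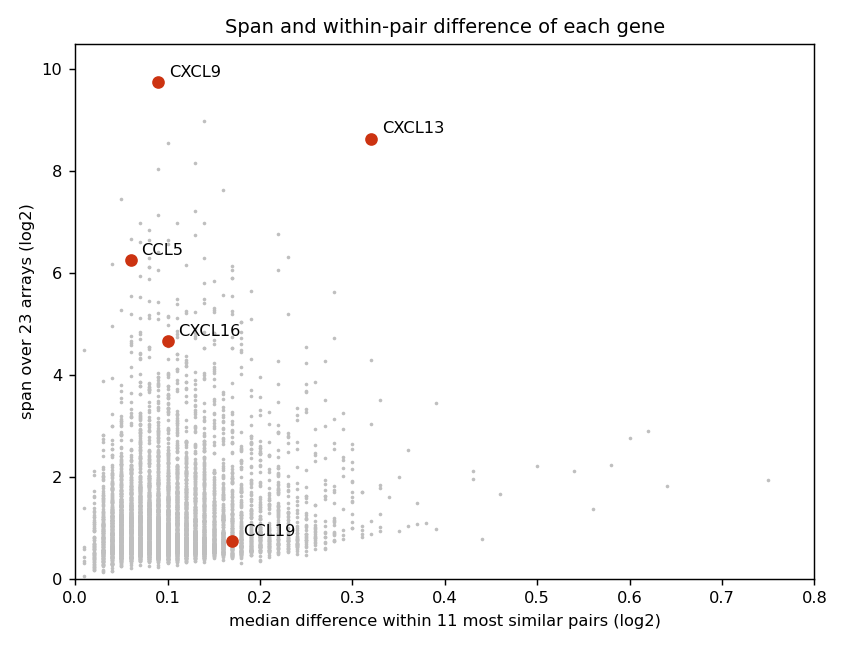
Span over the 23 arrays (y axis, log2) against the median difference within the 11 most similar pairs of arrays (x axis, log2). Grey points are the 6765 genes and red points the 5 chemokines. CXCL9 is the topmost point at 9.75 on the deposited values, CXCL13 lies far right for its height at 0.32, and CCL19 at 0.74 sits among the bulk of genes.

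Over the 23 arrays, CXCL13 and CXCL16 followed each other most closely (Pearson's r = 0.95, Spearman's rho 0.97). CXCL9 had an r of 0.93 with CXCL16, 0.91 with CXCL13 and 0.86 with CCL5. CCL5 had an r of 0.87 with CXCL16 and 0.74 with CXCL13, and CCL19 had between 0.52 and 0.65 with the other 4. These are descriptions with no test, because the arrays come in pairs and share 3 animals.

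The genes most like each member over the 23 arrays were named by Pearson's r. For CCL5 they were the neutrophil chemokine CXCL8 (r = 0.99), RGCC (0.98) and the cytokine IL1B (0.97), with a Spearman's rho of 0.69, 0.56 and 0.58. Each of these also had a gap between columns 1 to 6 and the rest: CXCL8 was at 8.80 to 10.16 in the first run and at 13.25 to 14.03 in the others. For CXCL9 they were PPA1, an inorganic pyrophosphatase, the interferon-induced USP18 and MORC3, each at 0.97. For CXCL13 they were PSME2, a proteasome activator subunit, the interferon-induced XAF1 and the galectin LGALS9, each at 0.98. XAF1 was at 6.19 to 6.30 in the first run, at 6.27 to 9.08 in the second and at 10.89 to 12.32 after that.

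For CXCL16 they were the small GTPase RALA (0.97), the chromatin remodelling factor RSF1 (0.97) and AGTRAP (0.96). RSF1 lay between 9.07 and 10.16, 10.11 and 11.35, 12.24 and 12.86, and 12.98 and 13.20 in the 4 runs, while the 4 runs of AGTRAP, like those of CXCL16, did not overlap. For CCL19 the closest were SCIMP (0.78), SHISA5 (0.78) and the tyrosine kinase FYN (0.77). Ranked by Spearman's rho, 2 of these 15 genes would still be named.

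Other chemokines of lymphocytes and monocytes gave 8 named genes of 14 listed, and 0 of 8 passed the limma test for any labelled time. CXCL10 and CXCL11, the other ligands of CXCR3, had no named probe set. On columns 7 to 12, 4 of 8 lay wholly above columns 1 to 6, beside 4.55% of all probe sets, and on columns 19 to 23 2 of 8 did, beside 9.68%. CCL4, which draws T cells and monocytes, lay between 9.13 and 9.69 in the first run, 14.51 and 14.69 in the second, and 13.24 and 14.04, then 10.06 and 13.88, in the others. CCL3L1, of the same group, lay between 9.36 and 10.22, 13.78 and 14.13, 12.35 and 13.64, and 10.81 and 13.45. The monocyte chemokines CCL2 and CCL8 were high on the second run, at 14.17 to 14.31 and 14.32 to 14.46, and reached down to 11.17 and 8.51 on the last. All 4 thus had their lowest level of columns 7 to 23 in the last run, on column 19 or 20, where CCL5 read 12.96 and 12.93.

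In the RefSeq gene table of the assembly Sscrofa11.1, CCL19 lay next to CCL21 and 2 genes from CCL27, and CCL5 lay 2 genes from CCL14. These neighbours were looked up for their position and fell outside the rule for named genes. CCL21, also a ligand of CCR7, spanned 0.80, CCL27 0.64 and CCL14 1.41, far less than CCL5. CXCL9 lay near CXCL10 and CXCL11. Of the 3 coding genes to either side of it, SDAD1 and NAAA were measured, with spans of 0.90 and 2.52 and an r of -0.42 and -0.68 to CXCL9. Around CXCL13, 5 of 6 were measured, with an r to it from -0.75 to 0.86, of which CCNG2 and CNOT6L, next to it, had 0.85 each. Around CXCL16, 4 of 6 were measured, with an r from -0.46 to 0.24.

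Of 12 chemokine receptors and scavengers listed, 5 had a named probe set, and 0 of 5 passed the limma test. CXCR3 and CXCR5, the receptors of CXCL9 and CXCL13, had none. CXCR6, the receptor of CXCL16, lay between 4.09 and 4.92 and below the array median on 23 of 23 arrays. CCR7, the receptor of CCL19, lay between 5.98 and 6.32 on columns 1 to 6, 6.18 and 6.42 on 7 to 12, 6.77 and 7.46 on 13 to 18 and 6.55 and 7.92 on 19 to 23. Its last 2 runs were thus above its first 2. CCR1 was bright throughout, from 11.43 to 12.80, and CCR3 ran from 4.57 to 6.72. CXCR4, the receptor of CXCL12, spanned 3.95 and lay between 13.08 and 13.92 on the last run against 9.97 to 12.78 on the others.

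Among 6 processing enzymes listed, 5 were measured and 0 of 5 passed the limma test. ADAM10 lay between 4.87 and 5.81, below the array median on 23 of 23 arrays. ADAM17 lay between 7.89 and 8.28 on columns 1 to 6, 8.36 and 8.66 on 7 to 12, 9.01 and 9.15 on 13 to 18 and 8.92 and 9.55 on 19 to 23, with the first 3 runs apart. DPP4, a peptidase that trims CXCL9 and CCL5, ranged from 5.54 to 6.88 in the first run and from 7.71 to 9.15 in the last. MMP9 ran from 5.95 to 7.95 with all runs overlapping.

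Of 26 genes of the inducing pathways listed, 19 were measured and 0 of 19 passed the limma test, while 10 of 19 lay wholly higher on columns 7 to 12 than on 1 to 6, beside 4.55% of all probe sets. On columns 19 to 23, 9 of 19 lay wholly higher than on 1 to 6 and 1 wholly lower, beside 9.68% and 15.3%. IFNG, interferon gamma, the best known inducer of CXCL9, is named outside the rule and after its values were seen. It lay between 3.36 and 4.10 and below the array median on 23 of 23 arrays. Interferon beta, IFNB1, lay between 3.27 and 3.75 on the first run, 7.51 and 9.08 on the second, 6.11 and 8.60 on columns 13 to 18 and 3.54 and 8.25 on the last. TNF, an inducer of CCL5 through NF-kappaB, lay between 5.42 and 6.10, 12.35 and 12.56, 10.06 and 11.30, and 6.20 and 10.66. The transcription factor IRF1 lay between 8.24 and 9.43, 12.85 and 13.35, 11.80 and 12.31, and 10.44 and 11.47. These 3 reached their highest level on columns 7 to 12, where CXCL13 and CXCL16 were below their own later runs. IRF7, the interferon-induced factor, lay between 7.78 and 8.03 on the first run, 7.82 and 10.26 on the second and 10.51 and 11.85 on the last.

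**Figure D4:**
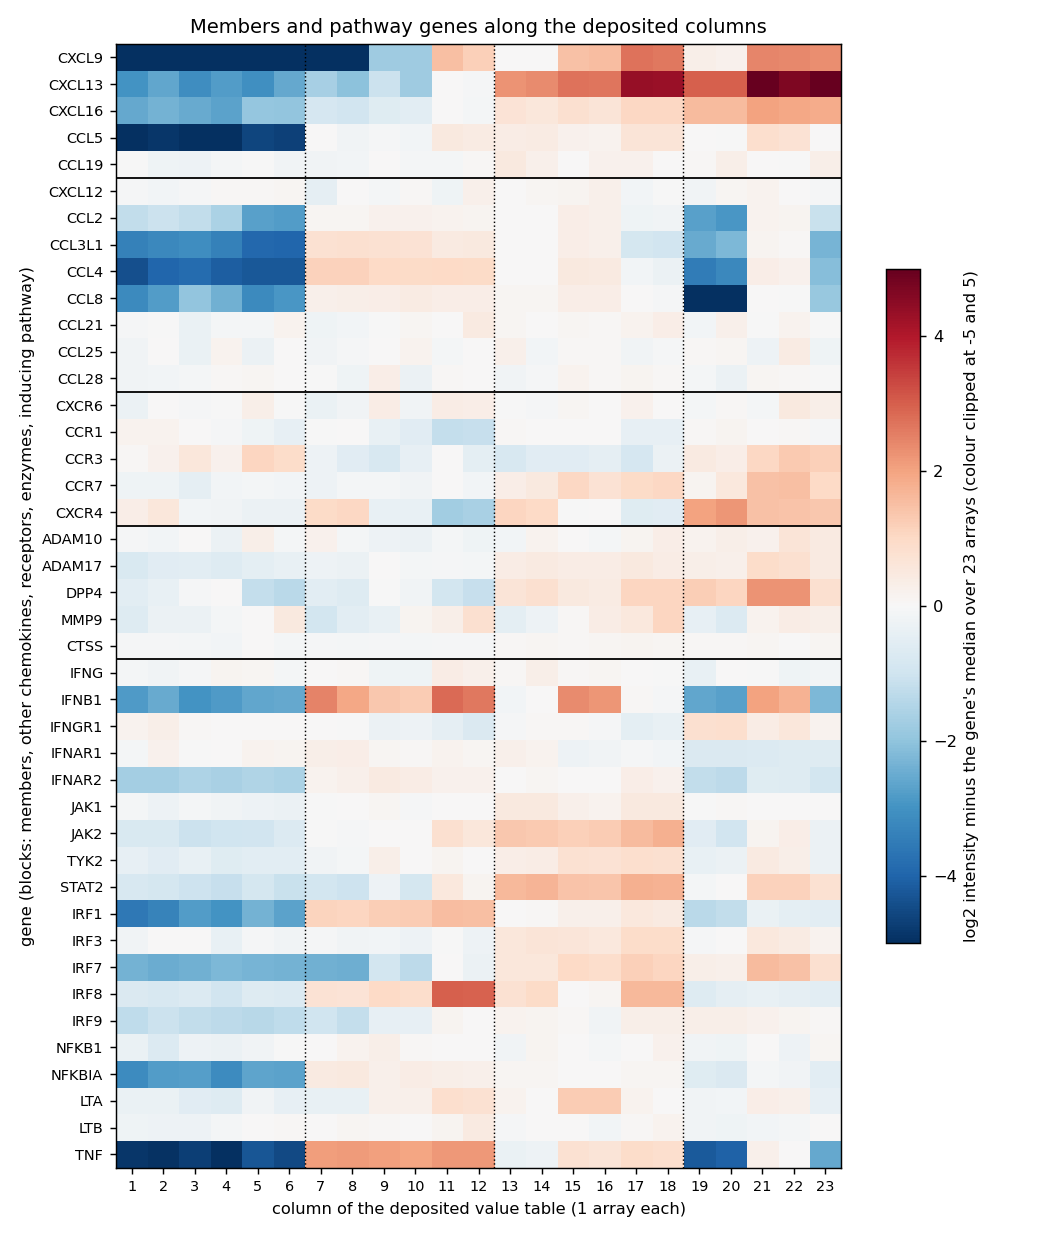
Log2 intensity minus the gene's median over the 23 arrays, as colour, for the 5 chemokines and the measured pathway genes (rows, in blocks) on each array in the order of the deposited columns (x axis). Dotted lines mark the runs. CCL5, CCL4, TNF and IRF1 are blue on columns 1 to 6 and pale or red on 7 to 12, whereas CXCL13 and CXCL16 turn red from column 13 on. CCL4, CCL8 and TNF are blue again on columns 19, 20 and 23, where CCL5 is pale.

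The labelled cell type was checked against 10 macrophage markers. Of the 7 measured, 6 lay above the array median on all arrays, with the protease CTSD between 13.27 and 13.82. The scavenger receptor MARCO lay between 5.58 and 6.15, below the median throughout. Of 10 measured T and NK cell markers, 7 were below the array median on all arrays, the dimmest being KLRK1 (3.35 to 4.15). The T cell receptor subunit CD3E, outside the rule and named after its values were seen, ranged from 4.21 to 4.99. The median over that list was 4.68 to 4.91, 4.80 to 5.14, 4.74 to 5.20 and 4.78 to 5.00 in the 4 runs. CD2, the brightest of the 10, differed from the rest of its list: it lay between 5.18 and 5.63, 5.88 and 6.66, 7.37 and 8.84, and 6.13 and 10.45 in the 4 runs, and its part in their levels was not tested. B cell marker CD79B lay between 4.10 and 4.51, and JCHAIN between 7.06 and 9.23.

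Markers of other cells varied too. Granulocyte marker S100A9 ranged from 9.46 to 11.39 in the first run and from 13.56 to 13.73 in the last. ELANE was at 6.89 to 8.10 and at 5.05 to 5.99 in the same runs. The median over 4 measured granulocyte markers was 7.51 to 8.55 in the first run and 8.46 to 9.63 in the last. The stromal markers LUM (3.23 to 9.38) and PDGFRB (6.24 to 9.37) ranged widely, and the median over 5 stromal markers overlapped between all runs. The single measured dendritic cell marker, XCR1, lay between 6.52 and 7.23. Among 4 endothelial markers, KDR lay between 3.83 and 4.37 and PECAM1 between 9.68 and 10.70. The part of these cells in the chemokine levels was not tested.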

How the data were processed

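The deposited table gives an intensity for each probe set and array, not on a log scale. Per the submitters' processing notes the authors used the affy package and the RMA method. RMA corrects background and makes arrays comparable; versions were not given in the sources used here. The array's 124 control probe sets were dropped from the 24123. Values were taken to log2 with no further normalization. In the platform annotation 10069 probe sets had 1 gene, 198 had several and 13732 had none. Symbols were updated through RefSeq gene identifiers (9989 matched), and the probe set with the highest mean stood for a gene. The number of arrays limits the precision.

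Duplicate cultures were averaged to 12 pig-by-time means. Labelled times were compared with limma 3.58.1 under R 4.3.3. The model held pig and time, with 6 residual degrees of freedom and Benjamini-Hochberg adjustment over 23999 probe sets (threshold 0.05). Pig was kept as a replicate block because the series description gives the same pigs at all times. Deviations of same-numbered pigs correlated at 0.27 to 0.97, highest for 2 h against 0 h (0.87 to 0.97). The labelled pigs are stretches of the deposited table, and each held arrays of both EIF1AY levels. These correlations therefore cannot show that a block is a single animal. The fit was first tested on simulated data.

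Named genes were the members, pathway genes that passed a test or had the 4 widest spans of their list, 7 receptors and sheddases, the brightest and dimmest marker of a list, and 3 genes most like each member. The members, lists and runs of columns were chosen with earlier results of these data known. Alternatives covered the pig term, the cultures, dim probe sets, quantile normalization, a pseudocount of 16 and each pig left out. The arrays against their labelled sex were left out as an alternative added after seeing the data. No sequence is shown, because no sequence table was used here.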

Additional observations from a re-analysis of the deposited data

Results flagged for a closer look

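An array stood far from the rest of its labelled time in 2 of 24 combinations of chemokine probe set and time, where chance gives about 1.2 (about 1 in 20). Both concerned CCL5 and culture 1 of labelled pig 1. That culture read 7.52 at the labelled 7 h against 12.96 to 13.43 on the others, and 7.64 at the labelled 24 h against 12.81 to 13.37. These arrays are columns 3 and 4, a pair of most similar arrays, and both had EIF1AY against the labelled sex. CCL5 was as low on the other 4 arrays of columns 1 to 6, between 7.69 and 8.38, which are labelled 0 h and 2 h.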

How the results depend on the processing

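Of 147 alternative differences between labelled times for the 5 members, 127 kept their sign, 20 turned it and 0 passed in limma (adjusted p from 0.298 to 1). The 49 alternatives of the test over all times have no sign, and 0 passed (adjusted p from 0.31 to 1). With culture 1 only, CXCL13 and CCL5 turned to -0.14 and -0.10 at 7 h, and CCL5 and CCL19 to -0.09 and 0.01 at 24 h. CXCL13 at 24 h was 0.15 with the 23 arrays and a random block, and CXCL13 and CCL19 were 1.13 and 0.05 without the 8 arrays against their labelled sex. There CXCL9, CXCL13, CXCL16 and CCL5 were also larger, at 1.18, 1.69, 1.16 and 1.52 at 7 h, and CXCL9, CXCL16 and CCL5 at 0.77, 1.04 and 1.44 at 24 h, while CCL19 was -0.07 at 7 h. Without single pigs the values at 2 h ran from -0.03 to 0.12 (CXCL9), -0.23 to 0.13 (CXCL13), -0.03 to 0.04 (CXCL16) and -0.03 to 0.07 (CCL5). At 7 h they ran from -0.09 to 1.73 (CXCL9), 0.11 to 0.72 (CXCL13), -0.27 to 1.19 (CCL5) and -0.24 to -0.07 (CCL19), and at 24 h from -0.72 to 1.60 (CXCL9), -0.54 to 0.69 (CXCL13), 0.15 to 0.34 (CXCL16), -0.31 to 1.16 (CCL5) and -0.10 to 0.05 (CCL19). The probe sets called at 2 h, 24 h and over all times, 3, 1 and 2, became 30, 15 and 34 with the 23 arrays and a random block, 0, 0 and 0 with culture 1 only, 0, 0 and 1 with quantile normalization, and 0, 3 and 1 without the 8 arrays, where 1 was called at 7 h. Each was 0 when any 1 of the 3 pigs was left out. Without the replicate block 2 were called at 24 h, the other counts stayed within 1.5 times, and no member's call changed. For CXCL16 the F value of the test over all times was 10.23 with the block and 0.04 without it. A pseudocount of 16 gave 1 over all times and spans of 8.84 (CXCL9), 8.02 (CXCL13), 6.15 (CCL5) and 0.55 (CCL19). Quantile normalization gave CCL5 a span of 6.37. Without the 8 arrays CXCL16, CCL5 and CCL19 spanned 4.42, 5.92 and 0.50. Spearman's rho shared 2 of the 15 most alike genes. The cause of these changes was not tested. Without the 8 arrays, labelled time and position in the table cannot be told apart. With all 23 arrays the same holds within each labelled culture. CCL19 dropped out when dim probe sets were left out, so it has no value there. No detection calls were used, so a dim probe set such as that of CCL19 is a level and not a call of absence.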
